A study of Mus musculus with 6 samples.

Results

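The miR-28 family in these data comprised the mature strands of mmu-miR-28a, mmu-miR-28c, mmu-miR-151 and mmu-miR-708, written below without the species prefix. Its members were selected by name, as every row whose mature miRNA carries one of these stems, and this gave 7 of the 535 mature miRNAs in the table, on 8 of its 792 rows. Both arms were present for miR-28a, miR-151 and miR-708, and miR-28c has one mature strand without an arm name. All 7 passed the filter of more than 10 counts summed over the 6 libraries, as did 525 of the 535.

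Small RNA had been sequenced from CD1 mouse embryos at embryonic day 15.5 in 2 groups of 3 libraries. The study describes 3 biological replicates, which came from 3 litters of wild-type embryos. The first group (MNP1, MNP2 and MNP6) was nephrogenic mesenchyme enriched for nephron progenitors, obtained by removing cells that carry CD140a, CD105, Epcam or Ter119 with magnetic beads, which enriches the progenitors without selecting them by a marker of their own. The second (MWK1, MWK2 and MWK6) was whole kidney, prepared from the tissue that remained after digestion. A miRNeasy Micro Kit was used for the first group and a Mini Kit for the second, so effects of kit and of isolation cannot be told apart from those of cell population. With one value per mature miRNA, the libraries held 393951 counts in MNP1, 436112 in MNP2 and 333850 in MNP6, against 349241 in MWK1, 360221 in MWK2 and 355848 in MWK6. The family supplied between 1373 and 1796 counts in each library, without miR-28c, whose values repeat those of miR-28a-5p. The methods of the study name 3 litters for both groups, so libraries of different groups share litters. Which of them do is not given in the sources used here, and the tests treat the 6 libraries as independent.

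A miRNA precursor folds into a hairpin from which Dicer cuts a duplex, and the strand from the 5′ side (5p) or the 3′ side (3p) is loaded into the silencing complex, where its seed, bases 2 to 8, largely sets the targets. The miR-28 family is known for hairpins that descend from LINE-2 repeats and lie in introns of protein-coding genes, so that host and miRNA can share a primary transcript. Outside this setting, miR-151 is known for its link to cell migration together with its host, miR-28 for restraining B cell growth, and miR-708 for low levels in renal cell carcinoma.

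Each of the 4 precursors lay in an intron of a different protein-coding gene, on the same strand as that gene, and overlapped no exon of any spanning transcript (mm10 coordinates from the deposited table, genes from GENCODE). mir-28a (chr16:24827855-24827940, plus strand) lies in Lpp, which encodes a LIM domain protein of cell adhesions. mir-151 (chr15:73254815-73254882, minus strand) lies in Ptk2, which encodes focal adhesion kinase, and also within the antisense gene 1700085D07Rik on the opposite strand. mir-708 (chr7:96249424-96249532, plus strand) lies in Tenm4, a teneurin gene, and mir-28c (chr15:53614205-53614279, minus strand) lies in Samd12. No other counted precursor lay within any of these hosts, so none of the 4 shares its host with a second miRNA of the table.

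Mature sequences were available for 4 of the 7 strands in RefSeq (GRCm38.p6, the assembly of mm10). They are printed to show which strands share a seed, given in capitals.
miR-28a-5p: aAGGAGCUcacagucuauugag
miR-708-5p: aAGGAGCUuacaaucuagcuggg
miR-28a-3p: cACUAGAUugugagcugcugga
miR-708-3p: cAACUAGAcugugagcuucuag
The mature strands of miR-28a lie at chr16:24827868-24827889 (5p) and chr16:24827908-24827929 (3p), and those of miR-708 at chr7:96249450-96249472 (5p) and chr7:96249496-96249517 (3p), all on the plus strand. miR-28a-5p and miR-708-5p start with the same 8 bases, AAGGAGCU, hold one seed (AGGAGCU) and match at 16 of 22 positions. No other mature mouse miRNA of the RefSeq table has this seed. Read in the best register, miR-28a-3p and miR-708-3p match at 17 of 21 positions and share the run UGUGAGCU, but that register is shifted by 1 base, so their seeds differ (ACUAGAU and AACUAGA) and each was found in no other mature mouse miRNA of that table.

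Levels are given in CPM (counts scaled to one common library total after TMM normalization); a read covers one mature strand, so CPM was not divided by length. miR-151-3p was the most abundant strand, at rank 57 of 525 by mean CPM, followed by miR-708-3p (rank 87), miR-708-5p (rank 156), miR-28a-5p (rank 191), miR-28a-3p (rank 200) and miR-151-5p (rank 248). Each of the first 3 strands lay above the next in every library of each group. miR-28a-5p lay above miR-28a-3p in all nephron progenitor libraries but not in whole kidney, and miR-28a-3p lay above miR-151-5p in all whole kidney libraries but not in nephron progenitors. The 3-count floor corresponded to between 6.54 and 9.45 CPM, well below every strand in every library, and it covers counting error only.

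**Figure D1:**
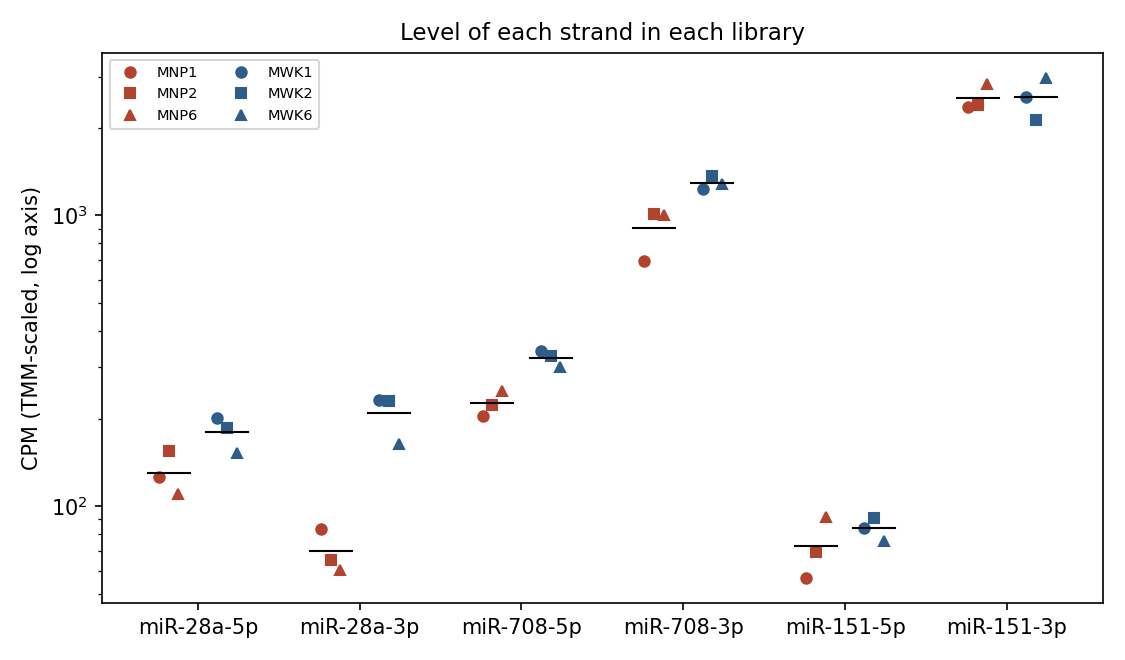
Level of each arm-named strand (x axis) in CPM after TMM scaling (y axis, log scale) in each of the 6 libraries; red symbols are nephron progenitor libraries, blue symbols whole kidney libraries and black lines the group means. The groups separate for miR-28a-3p and for both miR-708 strands, and overlap for miR-28a-5p and both miR-151 strands.

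Of the 7 strands, 2 passed the threshold (edgeR's quasi-likelihood test, Benjamini-Hochberg adjusted p of 0.05 or less over the 525 miRNAs), miR-28a-3p and miR-708-3p, and both were lower in nephron progenitors. The call of miR-708-3p was lost in 14 of the 19 alternatives, including DESeq2, where miR-28a-3p alone passed. Alternatives that change only miR-28c or miR-28a-5p leave the counts of miR-28a-3p and miR-708-3p as they are, so they are no test of either. Among all 525 miRNAs, 36.6% passed in either direction, 17.1% as lower and 19.4% as higher. The family's median log2 fold change, nephron progenitor over whole kidney, was -0.46, beside -0.01 for all miRNAs tested. In the 7 strands miR-28c repeats the values of miR-28a-5p, and the median is the value these strands share. The groups did not overlap in CPM for 3 of the 7, all of them lower in nephron progenitors, where 46.7% of all miRNAs had groups that did not overlap and 23.2% did so with the lower values in nephron progenitors. In bulk samples such as these, fewer cells of a type that holds a miRNA and less of it per cell cannot be told apart.

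The strand of the family with the largest log2 fold change was miR-28a-3p. It was at 83.7 CPM in MNP1, 65.4 in MNP2 and 60.4 in MNP6, against 232 in MWK1, 230 in MWK2 and 163 in MWK6. All nephron progenitor libraries lay well below MWK6, the lowest of whole kidney, and the groups did not overlap. Nephron progenitors averaged 69.8 ± 12.3 CPM and whole kidney 208 ± 38.8 CPM (SD over 3 libraries). The log2 fold change was -1.57 (standard error 0.26; edgeR, adjusted p = 0.00036), a level 2.97-fold higher in whole kidney (95% interval 2.02 to 4.37). This call was kept in all 19 alternatives, with log2 fold changes from -1.71 to -1.37 and adjusted p from 2.3e-05 to 0.0065. Those that change only miR-28c or miR-28a-5p leave the counts of miR-28a-3p as they are and are no test of it.

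The other strand of the same hairpin, miR-28a-5p, which carries the seed shared with miR-708-5p, had a smaller log2 fold change. It was at 126 CPM in MNP1, 155 in MNP2 and 110 in MNP6, against 201 in MWK1, 186 in MWK2 and 152 in MWK6. The highest nephron progenitor library (MNP2) lay just above the lowest whole kidney library (MWK6), so the groups overlapped. The log2 fold change of -0.46 (standard error 0.24) did not pass, with an adjusted p of 0.17 in edgeR's quasi-likelihood test and a 95% interval from -0.98 to 0.06.

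The counts of the mir-28a strands were next compared as a ratio within each library, as planned for all hairpins tested. This ratio does not depend on how libraries are scaled. The 5p and 3p counts were 51 and 34 in MNP1, 71 and 30 in MNP2, and 42 and 23 in MNP6. In whole kidney they were 67 and 77 in MWK1, 59 and 73 in MWK2, and 52 and 56 in MWK6. The 5p strand was thus the more abundant one in each nephron progenitor library and the less abundant one in each whole kidney library. Its share of the pair ranged from 60.0% (MNP1, 95% exact Clopper-Pearson interval 48.8 to 70.5) to 70.3% (MNP2, 60.4 to 79.0) in nephron progenitors, and from 44.7% (MWK2, 36.0 to 53.6) to 48.1% (MWK6, 38.4 to 58.0) in whole kidney; these intervals cover counting error only.

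Expressed as log2 of 5p over 3p (pseudocount 0.5), the miR-28a ratio came to 0.58 in MNP1, 1.23 in MNP2 and 0.85 in MNP6, against -0.20 in MWK1, -0.30 in MWK2 and -0.11 in MWK6. The difference of 1.09 (standard error 0.27) passed the threshold in limma, with an adjusted p of 0.012 over the 67 hairpins with at least 10 counts on average for each arm. Among those hairpins 22.4% passed, 11.9% with 5p over 3p higher in nephron progenitors as for miR-28a, and 38.8% had ratios that did not overlap between the groups. miR-28a ranked 8 by the size of the difference and 9 by p. Without MWK1 the difference was 1.09 with an adjusted p of 0.053, not past the threshold (0.0027 to 0.12 over all alternatives), while it passed without each of the other 5 libraries.

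The counts of miR-28a-5p are uncertain, because miR-28c shares them. miR-28c is listed in the table on 2 rows. On the row for the mir-28a hairpin it holds exactly the counts of miR-28a-5p in all 6 libraries, and as the highest count per mature name was kept, miR-28c and miR-28a-5p have identical values here and are not independent measurements. On the row for its own hairpin, mir-28c, it holds 24 counts in MNP1, 40 in MNP2 and 16 in MNP6, against 13 in MWK1, 19 in MWK2 and 18 in MWK6. These counts amounted to 47.1%, 56.3% and 38.1% of the miR-28a-5p counts in the nephron progenitor libraries and to 19.4%, 32.2% and 34.6% in the whole kidney libraries, with no overlap between the groups (two-sided exact permutation p = 0.1, the lowest this design can reach). Taken by itself in place of the higher row, the mir-28c row gave a log2 fold change of 0.33 with an adjusted p of 0.51 in edgeR's quasi-likelihood test, a setting chosen after seeing the data and run in this form only.

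The table does not tell whether the same reads were counted on both rows. In a setting chosen after seeing the data, all counts of the mir-28c row were subtracted from miR-28a-5p. This gave 27 counts in MNP1, 31 in MNP2 and 26 in MNP6, against 54 in MWK1, 40 in MWK2 and 34 in MWK6, and the groups did not overlap in counts. The log2 fold change of miR-28a-5p then became -0.93 and passed (edgeR, adjusted p = 0.013, where all alternatives spanned 0.013 to 0.45). The difference in arm ratio was then 0.66 in place of 1.09 and did not pass (adjusted p = 0.12, limma), although the ratios of the groups still did not overlap, with -0.33 in MNP1, 0.05 in MNP2 and 0.17 in MNP6, against -0.51 in MWK1, -0.86 in MWK2 and -0.71 in MWK6. The call on the arm ratio thus depended on how the mir-28c row was treated. The subtraction leaves the counts of miR-28a-3p as they are, so it is no test of that strand.

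**Figure D2:**
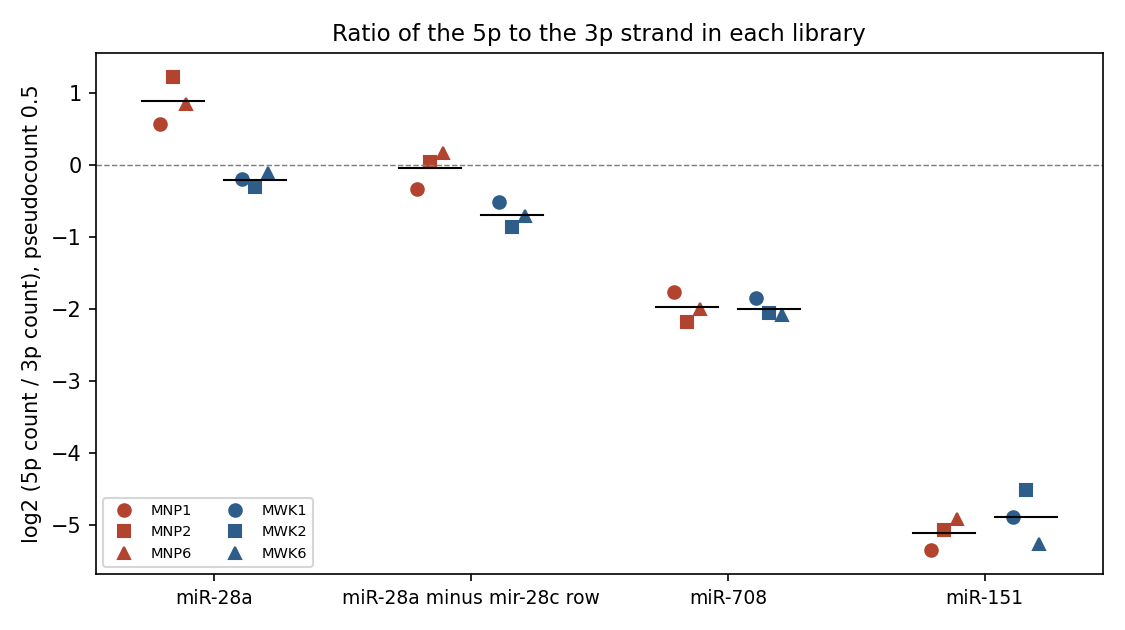
log2 of the 5p count over the 3p count (y axis, pseudocount 0.5) in each library for miR-28a, miR-28a after the counts of the mir-28c row were subtracted from its 5p strand, miR-708 and miR-151; red symbols are nephron progenitor libraries, blue symbols whole kidney libraries and black lines group means. The groups are apart for miR-28a, nearer after subtraction, and overlap for miR-708 and miR-151.

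The strands of miR-708 had nearly the same log2 fold change. miR-708-3p was at 694 CPM in MNP1, 1011 in MNP2 and 999 in MNP6, against 1233 in MWK1, 1370 in MWK2 and 1281 in MWK6. The groups did not overlap, and MNP1 was well below the other nephron progenitor libraries. Nephron progenitors averaged 901 ± 179 CPM and whole kidney 1295 ± 69.4 CPM (SD over 3 libraries), and the log2 fold change was -0.52 (standard error 0.19; edgeR, adjusted p = 0.049). This call lay at the threshold and was lost in 14 of the 19 alternatives, including DESeq2 (adjusted p = 0.074; 0.023 to 0.28 over all alternatives). Alternatives that change only miR-28c or miR-28a-5p kept the call, but they leave the counts of miR-708-3p as they are. These 14 include the fits without MNP1 (log2 fold change -0.36), MNP2 (-0.62), MWK1 (-0.55), MWK2 (-0.49) and MWK6 (-0.52), with adjusted p from 0.058 to 0.16, and the direction was the same throughout.

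miR-708-5p was at 204 CPM in MNP1, 222 in MNP2 and 250 in MNP6, against 343 in MWK1, 327 in MWK2 and 301 in MWK6. Here too every nephron progenitor library lay below every whole kidney library. The log2 fold change was also -0.52 (standard error 0.21), with an adjusted p of 0.066 in edgeR, and it passed when MNP6 was left out (-0.64, adjusted p = 0.029; 0.029 to 0.30 over all alternatives). The whole kidney level was 1.44-fold that of nephron progenitors for each strand, with 95% intervals from 1.05 to 1.96 for the 5p strand and from 1.08 to 1.92 for the 3p strand.

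The arm ratio of miR-708 overlapped between the groups. For each 5p count the 3p strand held 3.40 counts in MNP1, 4.55 in MNP2 and 4.0 in MNP6, against 3.60 in MWK1, 4.18 in MWK2 and 4.26 in MWK6. The spread within nephron progenitors was as wide as that over all libraries. In log2 of 5p over 3p, the difference between the groups was 0.02 (standard error 0.21, adjusted p = 0.95 from limma over 67 hairpins).

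miR-151, the most abundant hairpin of the family, showed no difference that passed. miR-151-3p was at 2364 CPM in MNP1, 2390 in MNP2 and 2830 in MNP6, against 2550 in MWK1, 2119 in MWK2 and 2966 in MWK6. The lowest and the highest of the 6 libraries were both whole kidney libraries. The log2 fold change was -0.01 (standard error 0.17, adjusted p = 0.98 in edgeR), with a 95% interval from -0.39 to 0.37. Changes within that interval are not excluded by these replicates. miR-151-5p was at 56.6 CPM in MNP1, 69.7 in MNP2 and 92.0 in MNP6, against 84.2 in MWK1, 91.3 in MWK2 and 75.9 in MWK6. Its groups overlapped, and its log2 fold change of -0.21 (standard error 0.27) had an adjusted p of 0.62 in the same test.

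Of the hairpins of the family, mir-151 was the most one-sided. Each 5p count of miR-151 was matched by 41.7 counts of the 3p strand in MNP1, 34.3 in MNP2 and 30.8 in MNP6, against 30.3 in MWK1, 23.2 in MWK2 and 39.1 in MWK6. The difference in log2 of 5p over 3p was -0.23 (standard error 0.25, adjusted p = 0.58 from limma). Since the 5p strand held only 23 to 35 counts in a library, its ratio rests on the lowest 5p counts of the family.

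Summed over the 6 strands without miR-28c, the family was at 3528 CPM in MNP1, 3913 in MNP2 and 4341 in MNP6, against 4643 in MWK1, 4323 in MWK2 and 4939 in MWK6. MNP6 lay just above MWK2, so the groups overlapped, with means of 3927 ± 407 and 4635 ± 308 CPM (SD, n = 3 each). As a share of the CPM of all miRNAs tested, which TMM scaling does not affect, these strands held 0.423% ± 0.0663 and 0.433% ± 0.0478 in the same order, less than an SD apart. With miR-28c included, which counts the miR-28a-5p reads again, the means were 4057 ± 399 and 4815 ± 292 CPM and the groups did not overlap. The difference of this sum over 7 strands was -757 CPM, and -122 CPM with library totals in place of TMM, so its size depends on the scaling. Of the 6 strands together, miR-151-3p made up 64.4% ± 3.03 among nephron progenitor libraries and 54.7% ± 5.52 among whole kidney libraries. miR-708-3p made up 22.8% ± 3.08 and 28.1% ± 3.15, and miR-28a-3p 1.81% ± 0.505 and 4.54% ± 1.08, in the same order (SD, n = 3 each).

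By hairpin, miR-28a (both strands) summed to 209 CPM in MNP1, 220 in MNP2 and 171 in MNP6, against 433 in MWK1, 416 in MWK2 and 315 in MWK6. miR-708 summed to 899, 1233 and 1248 CPM, against 1576, 1697 and 1582 CPM, with the libraries in that order. For both hairpins the groups were apart, whereas miR-151 overlapped, at 2601 ± 279 CPM against 2629 ± 416 CPM (SD over 3 libraries). By seed, the strands with AGGAGCU (miR-28a-5p and miR-708-5p) summed to 330 CPM in MNP1, 377 in MNP2 and 360 in MNP6, against 544 in MWK1, 513 in MWK2 and 452 in MWK6. Every nephron progenitor library lay below every whole kidney library, at 356 ± 23.8 against 503 ± 46.7 CPM (SD over 3 libraries). miR-708-5p supplied 63.4% ± 5.35 of this seed among nephron progenitor libraries and 64.4% ± 1.81 among whole kidney libraries, which differ by less than either SD. The seed sums and these shares rest on the uncertain counts of miR-28a-5p, and neither was computed with the mir-28c row subtracted. That row averaged 47.2% of miR-28a-5p for nephron progenitors against 28.7% for whole kidney, so the closeness of the shares is not settled.

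The hairpins were also set against each other as ratios of counts within a library, for 3 pairs of strands that were chosen after their values had been seen. log2 of miR-708-3p over miR-151-3p averaged -1.50 ± 0.26 for nephron progenitors and -0.96 ± 0.30 for whole kidney (SD over 3 libraries), and log2 of miR-28a-3p over miR-708-3p averaged -3.66 ± 0.54 and -2.64 ± 0.29. In both ratios the groups did not overlap. For the strands that share a seed, log2 of miR-28a-5p over miR-708-5p averaged -0.79 ± 0.34 and -0.85 ± 0.11, and the groups overlapped. That overlap rests on the uncertain counts of miR-28a-5p, and the ratio was not computed with the mir-28c row subtracted. These ratios restate the fold changes given above and are a description. The two-sided exact permutation p of 0.1, 0.1 and 0.8 (0.15, 0.15 and 0.8 adjusted over the 3 pairs, with 0.1 the lowest possible unadjusted) add no support, since the pairs were chosen by their values.

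The miRNAs outside the family with the most similar profile over the 6 libraries were named for one strand each of mir-28a, mir-151 and mir-708. This was the strand with the higher mean CPM over the 6 libraries, although miR-28a-5p was the lower strand in whole kidney. Similarity was ranked by the smallest root mean square difference in mean-centred log2 CPM among 432 miRNAs with at least 10 CPM. Nearest to miR-28a-5p were miR-677-5p (0.04), miR-350-3p (0.07) and miR-450a-5p (0.10). Of these, miR-350-3p averaged only 15.0 CPM, not far above the 3-count floor, and the profile of miR-28a-5p itself rests on uncertain counts. Nearest to miR-708-3p were miR-542-3p (0.14), miR-455-5p (0.14) and miR-450a-5p (0.16), and nearest to miR-151-3p were miR-328-3p (0.08), miR-298-5p (0.10) and miR-128-3p (0.12). The median distance of all candidates was from 0.50 to 0.55 log2 units for these strands. Of the 8 different miRNAs named, miR-542-3p alone passed the threshold between the groups, with a log2 fold change of -0.73 (edgeR, adjusted p = 0.0042).

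Markers of some other cell types were lower in nephron progenitors, as were miR-28a-3p and miR-708-3p. Their counts below stand beside 17.1% of all 525 miRNAs that passed as lower and 19.4% that passed as higher. For tubule epithelium, 9 of 10 marker strands were lower in nephron progenitors past the threshold, and they summed to 793 CPM in MNP1, 891 in MNP2 and 570 in MNP6, against 26342 in MWK1, 27851 in MWK2 and 23512 in MWK6. The most abundant, miR-200a-3p, was at 105 against 12440 CPM on average, and miR-141-3p and miR-200b-5p were at 0 in all nephron progenitor libraries. Both strands of the endothelial marker miR-126a were lower, with sums of 419, 595 and 578 CPM against 20132, 21311 and 18150 CPM in the same order of libraries, of which miR-126a-3p held most. Epcam and CD105, which mark epithelial and endothelial cells, were among the antigens used for depletion.

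Erythroid markers, whose cells Ter119 removes, were lower for 4 of 5 strands. Their sums were 391 CPM in MNP1, 283 in MNP2 and 176 in MNP6, against 1495 in MWK1, 1486 in MWK2 and 762 in MWK6, and miR-451a was the most abundant. CD140a, which marks stromal cells, was also used for depletion. Of 10 stromal and smooth muscle strands 2 were lower and 1 higher, with sums of 44014, 58206 and 59521 CPM against 83097, 95642 and 80125 CPM, led by miR-143-3p. That strand alone accounts for the lower sum: the other 9 strands summed to 28918 ± 5671 CPM in nephron progenitors against 23498 ± 997 CPM in whole kidney (SD over 3 libraries), with overlapping groups, and the median log2 fold change of the list was 0.20. The share of stromal strands that passed was not above that of all miRNAs (36.6%). No strand of the erythroid, endothelial or stromal lists was at 0 in all nephron progenitor libraries. Leukocyte markers (led by miR-142a-3p; 0 of 6 lower, 1 higher) summed to 131 ± 41.0 and 100.2 ± 23.8 CPM, with overlapping groups, and skeletal muscle markers (led by miR-206-3p; 0 of 3 lower, 1 higher) to 290 ± 154 and 80.3 ± 28.8 CPM, nephron progenitors first (SD over 3 libraries). Without miR-206-3p the skeletal muscle sums were 112 ± 45.6 and 74.0 ± 20.8 CPM, with overlapping groups. The part of these cell types in the levels of miR-28a and miR-708 was not tested.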

How the data were processed

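Known miRNAs of miRBase had been counted by the authors with miRDeep2, after BBDuk trimming and Bowtie2 2.2.3 alignment (mm10), and were deposited as estimated counts without normalization, on one row per mature and precursor pair. For a mature miRNA on several rows, each library's highest value was taken; 3 of 792 rows hold fractions and were rounded. Counts had been assumed in the design, and rounded expected counts went through the same tests. miRNAs with more than 10 counts over all libraries were scaled by TMM and tested in edgeR 4.0.16 (R 4.3.3), and standard errors are the log2 fold change over the square root of F. Arm ratios were tested with limma 3.58.1 and a trend on mean abundance. DESeq2 1.42.0, limma-voom, other scalings and filters, summed rows, a replicate block and omission of single libraries were alternatives, and the steps were tested on simulated data. Named miRNAs were all family strands, miRNAs sharing a seed, the 3 nearest profiles per hairpin with both arms and the leading marker of each cell type list. Marker strands at 0 in all nephron progenitor libraries and the host genes were also named. Members and lists were chosen with earlier results of these data known. MNP6 and MWK6 match no single sample name and entered by group, without a replicate number. Replicate pairs differed beyond counting noise (chi-square per degree of freedom from 2.90 to 55.0). No batch is named in the labels. The qPCR, in situ hybridization and unannotated miRNAs were not analysed here.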

Additional observations from a re-analysis of the deposited data

How the results depend on the processing

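The count of miRNAs past the threshold was 144 to 211 with each library left out and 120 with more than 10 counts in every library, where 260 were tested. Library totals in place of TMM moved the median of all miRNAs by 0.20. Relative to that median, miR-28a-3p was at -1.56, miR-708-3p at -0.50, miR-708-5p at -0.50, miR-28a-5p at -0.45, miR-151-5p at -0.18 and miR-151-3p at 0.01. miR-28a-3p was called in all 19 alternatives and ranged from -1.71 to -1.49 with each library left out. The 19 include settings that change only miR-28c or miR-28a-5p and so are no test of miR-28a-3p.

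miR-708-3p was not past the threshold with DESeq2 (-0.50), library totals (-0.31), RLE (-0.50), no filter (-0.51), more than 10 counts in every library (-0.46), summed rows (-0.47) and without the 10 most abundant miRNAs (-0.49), and ranged from -0.64 to -0.36 with each library left out. miR-708-5p ranged from -0.64 to -0.45 with each library left out and miR-28a-5p and miR-28c from -0.62 to -0.37. miR-28a-5p was past the threshold (-0.93) only with the mir-28c row subtracted, and miR-28c changed sign (0.33) on its own row; both settings were chosen after seeing the data.

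miR-151-3p, near 0, changed sign with DESeq2 (0.0083), library totals (0.19), RLE (0.0083), no filter (0.0015), more than 10 counts in every library (0.051), summed rows (0.028) and without the 10 most abundant miRNAs (0.012), and ranged from -0.14 to 0.12 with each library left out; miR-151-5p changed sign with library totals (0.0053) and ranged from -0.44 to -0.053. None of these passed the threshold. The cause of these shifts was not tested.

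Of 67 arm ratios 15 passed, 10 to 14 with each library left out and 9 with summed rows. The miR-28a difference ranged from 0.92 to 1.24 with each library left out, was not past the threshold without MWK1, and was 0.66, not past it, after subtraction. It could not be given with a minimum of 50 counts, nor could that of miR-151, since both have a strand below it. The other ranges with each library left out were -0.41 to -0.039 for miR-151 and -0.091 to 0.12 for miR-708, whose sign was not stable. The difference of the sum over 7 strands, in which the counts of miR-28a-5p stand again as miR-28c, was -757 CPM. It was between -1042 and -535 CPM with each library left out and -122 CPM with library totals, and without miR-28c it was -708 CPM.

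The numbers 1 and 2 are shared by the groups, and both groups came from 3 litters, but no source says that equal numbers mark one litter, and the deviations of same-numbered libraries had a correlation of 0.039. MNP6 and MWK6 also share a number, but it matches no sample name, so both were left out of the block. In the 4 numbered libraries, the replicate block gave 153 miRNAs and the fit without the block 134. miR-708-3p was not past the threshold with the block (-0.66) or without it (-0.63), miR-708-5p passed without it (-0.68), miR-151-3p was at 0.00095 with it, and the miR-708 arm ratio was at -0.019 in both. miR-28a-3p passed in both fits. Counts were lowest on average for miR-151-5p, with 23 to 35 counts in a library.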
